A study of Schizosaccharomyces pombe with 12 samples.

Results

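The 150 most abundant antisense long non-coding RNAs of the fission yeast Schizosaccharomyces pombe are described here, each beside the gene on whose opposite strand it is named. The tables list 6936 genes, 1535 of them non-coding RNAs with an SPNCRNA identifier, and 634 of those are named as antisense to a gene. The members were the 150 of these 634 with the highest mean level over all 12 libraries, in transcripts per 1e+06 transcripts (TPM), a unit scaled to transcript length and to the library total. The members were thus chosen by their measured mean levels, which are given as a description. The last 2 members were SPNCRNA.1042 at 8.21 TPM and SPNCRNA.609 at 8.20 TPM, while the first antisense RNAs left out had 8.18 TPM (SPNCRNA.1471, opposite pof9) and 8.10 TPM (SPNCRNA.894, opposite fmc1).

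Antisense RNAs are transcripts read from the strand opposite a gene, and in fission yeast many are kept scarce by the nuclear exosome, by RNA interference and by chromatin factors that limit cryptic transcription. Genes used in meiosis and spore formation are held low in growing cells, in part by the Mmi1 and MTREC RNA elimination machinery, and antisense transcripts opposite such genes are a known feature of this yeast.

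RNA was measured in 12 libraries of cells growing exponentially in the rich medium YES at 30 °C, 3 libraries in each of 4 groups. The ntu1_KO group is h+ ade6-M216 with ura4-D18 and leu1-32, and its ntu1 gene is replaced by kanMX. The ntu2_KO group has the same h+ ade6-M216 ura4-D18 leu1-32 background with ntu2, annotated as a membrane-tethered transcription factor, replaced by kanMX. The wt_WT group is h- and carries ade6-704 with leu1-32 and ura4-D18. The ntu_WT group is h+ and carries ade6-M210 with leu1-32 and ura4-D18. All 4 groups thus share leu1-32 and ura4-D18, neither wild type carries the ade6-M216 of the knockouts, and the labels give both wild types 1 strain name. The labels do not say whether the libraries of a group came from separate cultures, so p-values measure only the spread between these libraries. Each knockout is named by 1 strain.

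Totals ran from 3177147 estimated counts in replicate 1 of ntu2_KO to 11782294 in a wt_WT library, and every wt_WT library was deeper than every library of the other groups. Ribosomal RNA genes took 0.371% to 6.68% of the counts, with the highest share in replicate 1 of ntu1_KO and the lowest shares in 2 of the wt_WT libraries. Mating-type M markers summed to 229 to 286 TPM in wt_WT and to at most 34.7 TPM in any library of the other groups, and P markers to at most 10.2 TPM in wt_WT, against 34.0 to 85.2 TPM elsewhere, as the labelled h- and h+ genotypes would give. The 10 meiosis markers summed to 70.9 to 83.2 TPM, with no group apart from the others in this sum. Of the 9 tested, rec10 was called, lower in wt_WT than in ntu_WT (log2 fold change -0.59 ± 0.14 SE, edgeR adjusted p = 0.0123). The other 8 were not called in any comparison. The ntu1 gene averaged 3.90 ± 0.600 TPM in ntu1_KO and 34.5 ± 0.604 TPM in ntu_WT, and ntu2 averaged 16.02 ± 2.86 TPM in ntu2_KO and 75.0 ± 6.74 TPM in ntu_WT (SD, n = 3 each).

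The members were low-abundance RNAs by the standard of coding genes, yet many stood above their sense partner. Their median mean level was 12.3 TPM, and the median of their sense genes was 17.0 TPM, while the median of 5100 protein-coding genes was 49.2 TPM. The other 479 antisense RNAs with a matched sense gene had a median of 2.17 TPM, and their sense genes a median of 37.2 TPM. The antisense RNA exceeded its sense gene in 67 of the 150 pairs (44.7%), against 33 of the 479 (6.89%). It exceeded it at least 10-fold in 27 pairs, against 5 of the others. The rule favours a high antisense level, so these shares are descriptions, but the sense level was not part of the rule: it was under 1 TPM in 21 of the 150 pairs and in 14 of the 479. Over the 150 pairs, antisense and sense mean levels had a Spearman rho of -0.22. This value is given without a p, because the pairs were chosen by antisense level and both levels come from the same libraries.

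**Figure D1:**
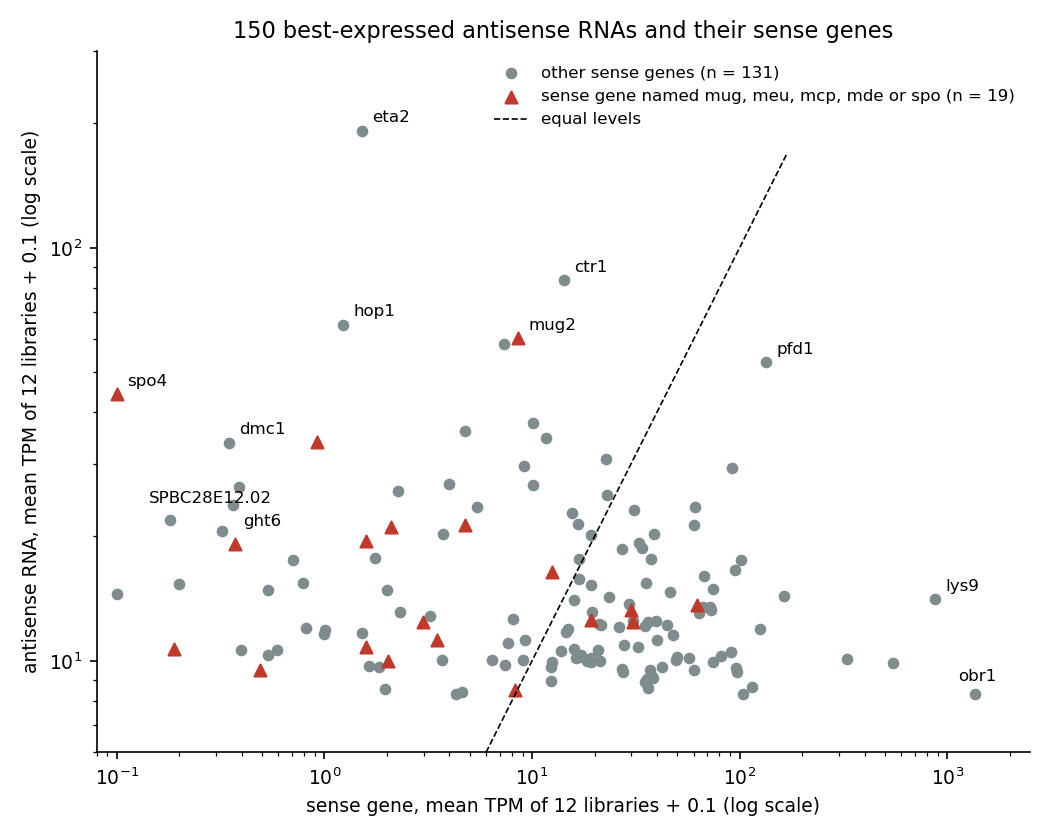
Mean TPM over 12 libraries of each antisense RNA (vertical, log scale) against that of its sense gene (horizontal, log scale), with 0.1 TPM added to both, for all 150 pairs. Points left of the dashed line have more antisense than sense RNA, which holds for 67 pairs, and triangles mark the 19 pairs whose sense gene has a meiosis-type name.

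The best-expressed member was SPNCRNA.74, one of 2 members opposite eta2, which encodes an RNA polymerase I termination factor of the Myb family. SPNCRNA.74 had 164, 163 and 167 TPM in ntu1_KO, 214, 204 and 175 TPM in ntu2_KO, 222, 207 and 216 TPM in wt_WT and 211, 176 and 183 TPM in ntu_WT. The sense gene eta2 stayed between 0.802 and 1.80 TPM in all 12 libraries, so SPNCRNA.74 averaged 192 TPM against 1.41 TPM for eta2. The second RNA opposite eta2, SPNCRNA.72, averaged 11.6 TPM, at rank 89. The ntu1_KO libraries held the lowest 3 of the 12 values of SPNCRNA.74, and its change against ntu_WT did not pass the test (log2 fold change -0.22 ± 0.08 SE, edgeR adjusted p = 0.591).

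SPNCRNA.772, opposite ctr1, followed with a mean of 83.3 TPM, against 14.2 TPM for ctr1. It had 84.5, 83.6 and 88.2 TPM in ntu1_KO, 86.1, 97.0 and 71.9 TPM in ntu2_KO, 88.9, 83.0 and 80.4 TPM in wt_WT and 86.6, 79.2 and 69.8 TPM in ntu_WT, so that the groups overlapped. SPNCRNA.1351 lies opposite mug2, a meiotically upregulated gene, and averaged 60.3 TPM against 8.47 TPM for mug2. In ntu1_KO it had 48.5, 51.1 and 50.7 TPM, against 58.6, 65.6 and 53.7 TPM in ntu_WT, with no overlap, but its change did not pass the test (-0.28 ± 0.10, edgeR adjusted p = 0.592). SPNCRNA.1096, opposite SPCC1884.01, averaged 58.4 TPM against 7.22 TPM for its sense gene.

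SPNCRNA.1461 is the only one of the 10 most abundant members that stood below its sense gene, with a mean of 52.8 TPM against 134 TPM for pfd1, a prefoldin subunit. The rest of the 10 most abundant follow here, apart from SPNCRNA.1602 and SPNCRNA.1644, which are described with the meiotic genes. SPNCRNA.564 averaged 37.5 TPM opposite guf1, a GTPase gene with 9.99 TPM. SPNCRNA.1192 averaged 36.0 TPM opposite wtf11, a wtf element with 4.66 TPM. SPNCRNA.1544 averaged 34.6 TPM opposite syf2, a splicing factor gene with 11.5 TPM. The wtf genes form a family, and whether reads of wtf11 or of its antisense RNA were shared with other members was not tested.

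**Figure D2:**
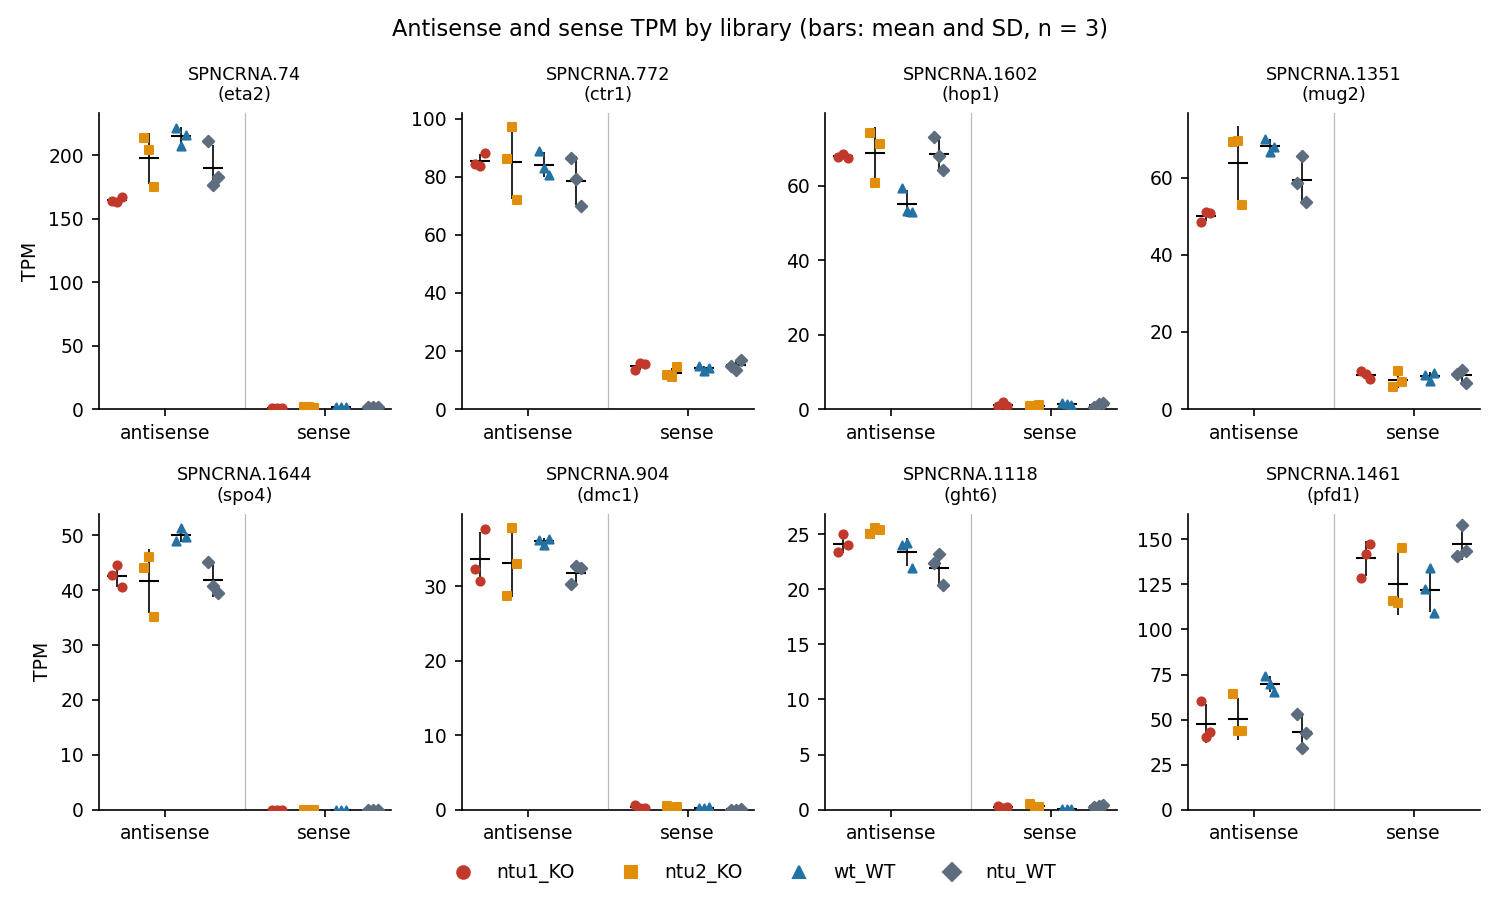
TPM of the antisense RNA (left) and the sense gene (right) in each of the 12 libraries for 8 pairs, with a horizontal bar at the group mean and a vertical bar of 1 SD (n = 3). In 7 of the 8 pairs the antisense RNA lies far above its sense gene in every library, and in the pair with pfd1 the sense gene lies above.

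Among the 150 sense genes, 19 (12.7%) bear a mug, meu, mcp, mde, spo or rec name, against 16 of the 479 other pairs (3.34%). Such names are given to genes linked to meiosis or sporulation, and no rec name is among the 19. These names were chosen after the values were seen, and the difference was not tested. The antisense RNA exceeded the sense gene in 15 of these 19 pairs, and the median of these sense genes was 2.88 TPM, against 19.2 TPM for the other 131. Their antisense RNAs had a median of 13.2 TPM, against 12.2 TPM for the others, both bounded from below by the choice of members. In the 479 pairs outside the 150, the antisense medians were 4.27 TPM with such a name and 2.04 TPM without, and the antisense RNA exceeded the sense gene in 7 of 16 and 26 of 463.

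SPNCRNA.1644 lies opposite spo4, a kinase of the DDK family needed for sporulation, and covers the whole gene. It had 42.8, 44.6 and 40.6 TPM in ntu1_KO, 44.1, 46.1 and 35.1 TPM in ntu2_KO, 49.0, 51.4 and 49.6 TPM in wt_WT and 45.2, 40.8 and 39.5 TPM in ntu_WT. The sense gene spo4 is listed at 0 in all 12 libraries. SPNCRNA.1602 lies opposite hop1, which encodes a protein of meiotic chromosome axes, and averaged 65.0 TPM against 1.13 TPM for hop1. SPNCRNA.904 lies opposite dmc1, the meiotic recombinase of the RecA family, and averaged 33.7 TPM against 0.247 TPM for dmc1. SPNCRNA.583, opposite the meiotic kinase gene mug27, averaged 10.6 TPM against 0.0875 TPM for mug27.

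The same imbalance was found opposite genes with other roles. SPNCRNA.1469 averaged 21.9 TPM opposite SPBC28E12.02, a gene for an RNA-binding protein of the BICC1 family with 0.0804 TPM, a ratio of 272. SPNCRNA.896 averaged 15.2 TPM opposite tda3, an amino acid oxidase gene with 0.0983 TPM, a ratio of 155. SPNCRNA.1671 averaged 20.5 TPM opposite the actin-like arp10, with 0.222 TPM. SPNCRNA.1118 averaged 23.7 TPM opposite ght6, a hexose transporter gene with 0.261 TPM. SPNCRNA.716 averaged 26.2 TPM opposite SPAC56F8.12, with 0.287 TPM. SPNCRNA.1215 averaged 14.4 TPM opposite SPCC417.03, which is listed at 0 in all 12 libraries.

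At the other end, the 5 members with the lowest ratios faced abundant sense genes. SPNCRNA.793 averaged 8.22 TPM opposite obr1, a quinone dehydrogenase gene with 1356 TPM. SPNCRNA.1597 averaged 14.0 TPM opposite the lysine biosynthesis gene lys9, with 870 TPM. SPNCRNA.812 averaged 9.75 TPM opposite mix17, with 546 TPM. SPNCRNA.1019 averaged 10.03 TPM opposite SPAC458.02c, with 329 TPM, and SPNCRNA.1139 averaged 8.52 TPM opposite the mitochondrial ribosomal protein gene mrpl4, with 115 TPM. The libraries were made with a strand-keeping kit, but the sources used here do not say whether counting used strand. Over all antisense pairs of the tables, 41 have a sense gene above 300 TPM, and in 9 of these the antisense level was at most 0.0001 of the sense level, 2 of them at 0 in every library. None of these 9 antisense RNAs is among the 150, and the share of sense reads counted on the opposite strand was not tested at the members.

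Most members span much of the gene they face. In the annotation, 66 members lie on chromosome I, 58 on chromosome II and 23 on chromosome III, and 3 have no position. Of the 147 placed members, 145 overlap the named gene on the opposite strand. The exceptions are SPNCRNA.1421, whose named partner ppk3 lies on another chromosome, and SPNCRNA.668, which does not overlap mug161 and is not placed opposite it. Both pairs were kept in the counts over the 150, and mug161 is among the 19 meiosis-type names. The median length was 1660 bases (515 to 4339), and the median share of the sense gene covered was 88.0%. The whole sense gene was covered by 39 members, and the antisense RNA exceeded the sense gene in 20 of these, against 44 of the 106 that cover part of it, a difference that was not tested. A further 57 members start within the sense gene and run past its 5′ end, 32 start beyond its 3′ end and stop within it, and 17 lie inside it. Of the 150, 30 overlap 2 coding genes on the opposite strand and 26 overlap a gene on their own strand, by at most 26.1% of their length, so reads there may be shared.

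Between ntu1_KO and ntu_WT, which differ in ade6 allele as well as at ntu1, 1 member was called. SPNCRNA.1277, opposite the vacuolar sorting gene pep3, was called at an adjusted p under 0.05 (1 of 150, 0.667%), while 0.74% of all 5808 genes tested were called. In bulk RNA, fewer cells with an RNA and less of it per cell cannot be told apart. All 150 members passed the filter on low counts, and their mean counts ran from 14.3 to 633 with a median of 110. Over the members, the median log2 fold change was 0.03, against 0.00 over all genes tested. None of the 124 sense genes tested was called with edgeR, and 7 had an unadjusted p under 0.05, as did 18 members and 5.89% of all genes tested. The TPM values of the groups did not overlap for 13 members that were higher and 17 that were lower in ntu1_KO, against 7.95% and 4.91% of all genes tested.

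SPNCRNA.1277 had 8.47, 5.03 and 5.68 TPM in ntu1_KO, against 12.8, 12.8 and 11.5 TPM in ntu_WT, with no overlap. It fell by 0.96 ± 0.21 on the log2 scale (SE, edgeR adjusted p = 0.0373), while pep3 had 25.8, 24.6 and 27.8 TPM in ntu1_KO and 25.7, 24.2 and 25.8 TPM in ntu_WT (log2 fold change 0.03 ± 0.08, edgeR adjusted p = 0.999). The call was lost without replicate 1, 2 or 3 of ntu_WT (adjusted p = 0.120, 0.239 and 0.133) and without replicate 2 or 3 of ntu1_KO (adjusted p = 0.334 and 0.205). The wt_WT libraries also lay below ntu_WT, at 6.79, 8.05 and 9.14 TPM, and against wt_WT the log2 fold change of ntu1_KO was -0.23 (edgeR adjusted p = 0.549). The log2 ratio of SPNCRNA.1277 to pep3 differed by -0.92 ± 0.23 between ntu1_KO and ntu_WT and did not pass the test (limma adjusted p = 0.137).

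Between ntu2_KO and ntu_WT, which also differ in ade6 allele, 1 of 150 members was called (0.667%), while 0.758% of all 5808 genes tested were called. The part of the ade6 allele in either call was not tested. The called RNA was SPNCRNA.763, which covers all of sgt1, annotated as an snRNP binding protein, and overlaps a second coding gene. It had 30.95, 19.2 and 22.6 TPM in ntu2_KO, against 16.2, 13.5 and 12.2 TPM in ntu_WT, with no overlap. The log2 fold change reached 0.76 ± 0.15 (edgeR with SE, adjusted p = 0.0264), and that of sgt1 was -0.13 ± 0.15 (adjusted p = 0.848). The call was lost without replicate 1 of ntu2_KO, the shallowest library and the highest value (adjusted p = 0.121), and without replicate 2 or 3 of ntu_WT (adjusted p = 0.198 and 0.161).

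The 3 ntu_WT libraries were the lowest of all 12 for SPNCRNA.763. In ntu1_KO it had 19.9, 21.2 and 20.5 TPM (log2 fold change 0.56 ± 0.15 against ntu_WT, edgeR adjusted p = 0.148). In wt_WT it had 20.9, 21.4 and 21.9 TPM, and against wt_WT the log2 fold change of ntu2_KO was 0.21 (edgeR adjusted p = 0.431). Over all members, the median log2 fold change of ntu2_KO against ntu_WT was 0.07, against 0.00 over all genes tested, and 99 members had a positive and 51 a negative value. Sense genes gave no call among 124 tested with edgeR, with 14 at an unadjusted p under 0.05 (9.06% of all genes tested). The TPM values did not overlap for 12 members that were higher and 9 that were lower in ntu2_KO, against 7.94% and 4.87% of all genes tested. Without replicate 3 of ntu2_KO, edgeR called 4 members in place of 1, and 3.33% of all genes tested. DESeq2 called 2 members and 1.24% of the genes it tested. With wt_WT as the control in place of ntu_WT, edgeR called 16 members in ntu1_KO (5.87% of all genes tested) and 4 in ntu2_KO (3.78%), and limma called 4 ratios in ntu1_KO (2.53% of all pairs).

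Between the knockouts, no member was called with edgeR (0 of 150), while 0.103% of all genes tested were called. At an unadjusted p under 0.05 there were 16 members (6.66% of all genes tested), and DESeq2 called 1 (0.243% of the genes it tested). The TPM values did not overlap for 3 members that were higher and 14 that were lower in ntu1_KO, against 4.46% and 5.06% of all genes tested. The ratio of antisense to sense RNA was tested with limma on log2((antisense TPM + 1)/(sense TPM + 1)) over the 434 pairs of the tables in which both partners averaged at least 1 TPM, 129 of them members. In that test 2 members differed between ntu1_KO and ntu2_KO, and 0.691% of all pairs were called. For either knockout against ntu_WT, limma called no member, and 0.23% of all pairs were called in each. At an unadjusted p under 0.05 there were 9 members for ntu1_KO and 12 for ntu2_KO, against 7.14% and 9.22% of all pairs.

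SPNCRNA.889 lies opposite the uncharacterized gene SPAC688.12c and covers it whole. It had 8.03, 14.7 and 8.09 TPM in ntu1_KO, against 34.6, 19.3 and 22.0 TPM in ntu2_KO, with no overlap. SPAC688.12c had 99.998, 117 and 130.4 TPM in ntu1_KO, against 92.9, 72.7 and 99.7 TPM in ntu2_KO, also with no overlap. The log2 ratio differed by -1.62 ± 0.31 (limma adjusted p = 0.0409). SPNCRNA.641 lies opposite SPAC630.07c, also uncharacterized, and had 22.1, 17.7 and 21.9 TPM in ntu1_KO, against 8.46, 11.2 and 8.87 TPM in ntu2_KO. Its log2 ratio differed by 1.14 ± 0.23 (limma adjusted p = 0.0409), and the values of SPAC630.07c overlapped between the groups, at 19.3, 20.7 and 17.2 TPM in ntu1_KO and 17.8, 21.1 and 23.1 TPM in ntu2_KO.

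Both ratio calls were sensitive to single libraries. The one for SPNCRNA.641 was lost on leaving out any of the 6 libraries, with adjusted p from 0.0547 to 0.151. The one for SPNCRNA.889 was lost without replicate 1, 2 or 3 of ntu2_KO (adjusted p = 0.149, 0.104 and 0.0514) and without replicate 1 or 3 of ntu1_KO (0.130 and 0.151).

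More members were called between the wild types than between either knockout and ntu_WT. Of the 150 members, 14 were higher and 5 lower in wt_WT than in ntu_WT (9.33% and 3.33%), while 4.05% and 4.19% of all 5899 genes tested were higher and lower (8.24% in all). With a change of at least 2-fold as well, 2 members were called and 1.03% of all genes. The median log2 fold change was 0.13 over the members and 0.14 over 312 other antisense RNAs tested, against 0.00 over all genes and -0.03 over 127 sense genes of the members. With every library thinned to the smallest total, an alternative chosen after seeing the data, 7 members were higher and 2 lower, 5.58% of all genes tested were called and the median over the members was 0.11. Without replicate 2 or 3 of ntu_WT, 8 and 11 members were called, against 4.25% and 4.74% of all genes tested. Without replicate 1, 2 or 3 of wt_WT, 10, 9 and 12 members were called, against 4.85%, 3.84% and 4.19% of all genes tested. The genotypes also differ in mating type and ade6 allele, and the wt_WT libraries were the deepest, so these cannot be told apart from the strain. On the TPM scale, 60 members lay wholly above and 6 wholly below ntu_WT, and 33.1% and 7.37% of all genes tested did so.

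**Figure D3:**
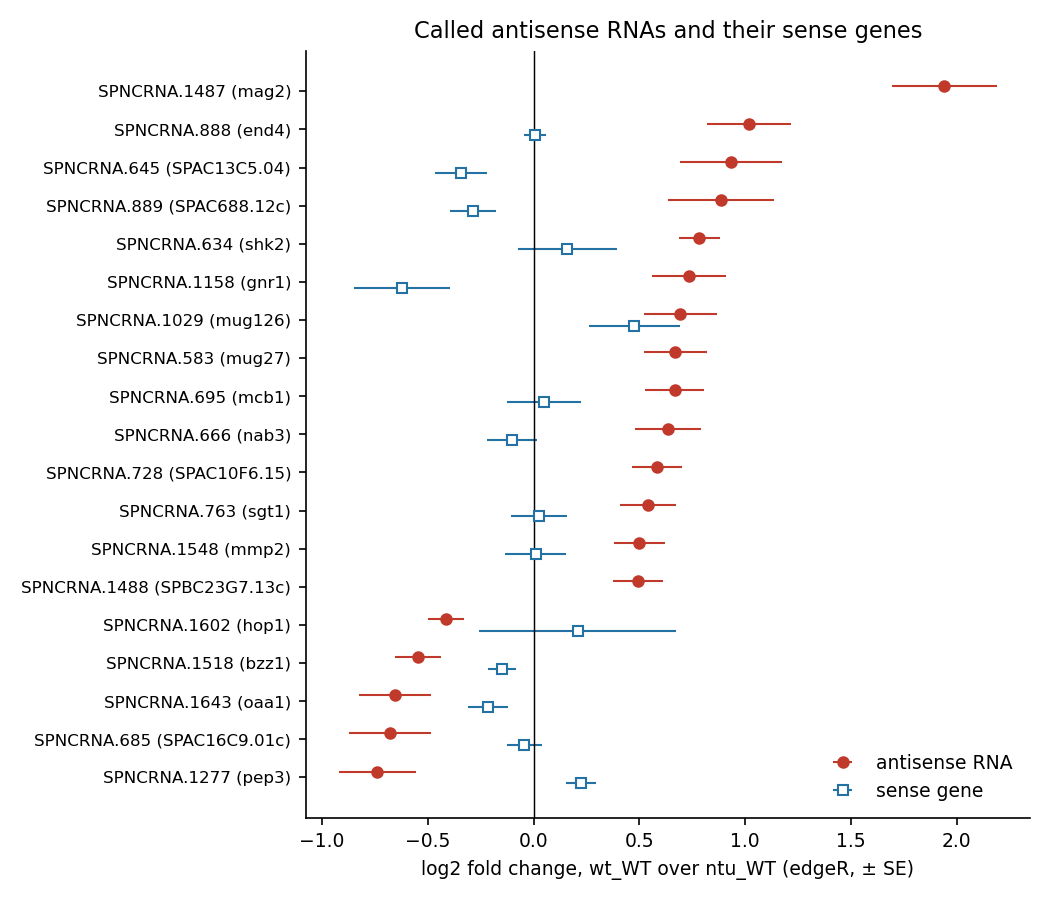
The log2 fold change of wt_WT over ntu_WT with its SE from edgeR for the 19 called antisense RNAs (filled circles) and their sense genes (open squares, where tested). The 14 antisense RNAs right of the line run from 0.49 to 1.94 and the 5 left of it from -0.74 to -0.41, and no sense gene shown was called.

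The greatest of these changes was that of SPNCRNA.1487, which covers mag2, a DNA glycosylase gene of base excision repair. It had 25.0, 25.4 and 29.3 TPM in wt_WT, against 5.59, 6.81 and 6.55 TPM in ntu_WT, a log2 fold change of 1.94 ± 0.25 (edgeR with SE, adjusted p = 4.32e-05). In the annotation, mag2 lies 2 coding genes from mat1-Mc, a gene of the mating-type locus, at which the h- wt_WT and h+ ntu_WT strains differ by label. Among the knockouts, which are h+ like ntu_WT, SPNCRNA.1487 had 6.41, 5.37 and 4.27 TPM in ntu1_KO and 16.04, 5.69 and 6.78 TPM in ntu2_KO. The high value is that of the shallowest library. The sense gene mag2 stayed at 1.38 TPM or less in every library.

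SPNCRNA.1488 faces the urea transporter gene SPBC23G7.13c, which lies 4 coding genes from mat1-Mc. It had 13.8, 13.5 and 12.9 TPM in wt_WT, against 9.53, 8.65 and 8.57 TPM in ntu_WT (log2 fold change 0.49 ± 0.12, edgeR adjusted p = 0.0128). The call was lost without replicate 2 of ntu_WT (adjusted p = 0.0743) and without replicate 1 or 2 of wt_WT (0.0567 and 0.0636), and with thinned libraries (0.110). The part of the mating-type locus in either result was not tested.

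SPNCRNA.634, opposite the PAK-like kinase gene shk2, had 30.4, 30.0 and 30.3 TPM in wt_WT, against 17.6, 16.5 and 14.9 TPM in ntu_WT. The log2 fold change reached 0.78 ± 0.10 (edgeR with SE, adjusted p = 2.98e-05), while shk2 had 4.75, 5.14 and 3.90 TPM in wt_WT and 4.64, 3.51 and 3.42 TPM in ntu_WT. Both knockouts lay between 13.9 and 19.9 TPM for SPNCRNA.634, below every wt_WT library.

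SPNCRNA.583, opposite mug27, had 13.1, 13.6 and 14.1 TPM in wt_WT, against 10.3, 7.67 and 6.45 TPM in ntu_WT (log2 fold change 0.67 ± 0.15, edgeR adjusted p = 0.00814), and lost the call without replicate 2 or 3 of ntu_WT (adjusted p = 0.0530 and 0.0573) and with thinned libraries (0.0870). SPNCRNA.695, opposite mcb1, a gene for a binding protein of the MCM complex, had 11.0, 11.3 and 10.6 TPM in wt_WT, against 7.27, 6.39 and 5.90 TPM in ntu_WT (0.67 ± 0.14, edgeR adjusted p = 0.00485), a call lost with thinned libraries (adjusted p = 0.136). SPNCRNA.763, described above, was higher in wt_WT by 0.54 ± 0.13 (edgeR adjusted p = 0.0128), a call lost without replicate 2 or 3 of ntu_WT (0.0738 and 0.0769) or replicate 2 or 3 of wt_WT (0.0578 and 0.0552), and with thinned libraries (0.0977). SPNCRNA.728, opposite SPAC10F6.15, was higher by 0.58 ± 0.12 (edgeR adjusted p = 0.00378).

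Among the 5 lower members, SPNCRNA.1602 opposite hop1 was the most abundant. It had 59.3, 53.2 and 52.9 TPM in wt_WT, against 73.0, 68.0 and 64.1 TPM in ntu_WT, and fell by 0.41 ± 0.08 on the log2 scale (SE, edgeR adjusted p = 0.00354). Both knockouts, at 60.7 to 74.2 TPM, lay above the wt_WT values. SPNCRNA.1518, opposite the actin-organising gene bzz1, had 15.2, 16.3 and 16.6 TPM in wt_WT, against 22.9, 22.5 and 20.7 TPM in ntu_WT, and fell by 0.55 ± 0.11 (edgeR adjusted p = 0.00337). With thinned libraries the calls for SPNCRNA.1602 and SPNCRNA.1518 were lost (edgeR adjusted p = 0.0809 and 0.110). SPNCRNA.1277 was lower in wt_WT as well, by -0.74 ± 0.18 (edgeR adjusted p = 0.0154), a call lost without replicate 2 of ntu_WT (0.0667) or replicate 1 or 2 of wt_WT (0.0946 and 0.0644).

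SPNCRNA.888 and SPNCRNA.889 face neighbouring genes and were high in the same libraries. SPNCRNA.888 lies opposite part of end4, a clathrin adaptor gene of endocytosis, and had 4 group ranges that did not overlap except between ntu1_KO and ntu_WT: 2.79 to 6.16 TPM in ntu1_KO, 9.28 to 12.8 TPM in ntu2_KO, 16.03 to 17.0 TPM in wt_WT and 6.03 to 8.35 TPM in ntu_WT. It was higher in wt_WT than in ntu_WT by 1.02 ± 0.20 (log2, SE, edgeR adjusted p = 0.00282), while end4 differed by 0.01 ± 0.05. Between ntu1_KO and ntu2_KO its log2 fold change was -1.26 ± 0.27 and did not pass the test (edgeR adjusted p = 0.160). SPNCRNA.889 had 23.5, 23.2 and 22.1 TPM in wt_WT, against 7.49, 13.2 and 13.6 TPM in ntu_WT (log2 fold change 0.89 ± 0.25, edgeR adjusted p = 0.0325). This call was lost without replicate 1 or 2 of ntu_WT (adjusted p = 0.108 and 0.0752), without replicate 1, 2 or 3 of wt_WT (0.105, 0.102 and 0.0890) and with thinned libraries (0.0511). SPNCRNA.889 overlaps end4 on the same strand over 7.58% of its length, so some reads may be shared with end4.

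**Figure D4:**
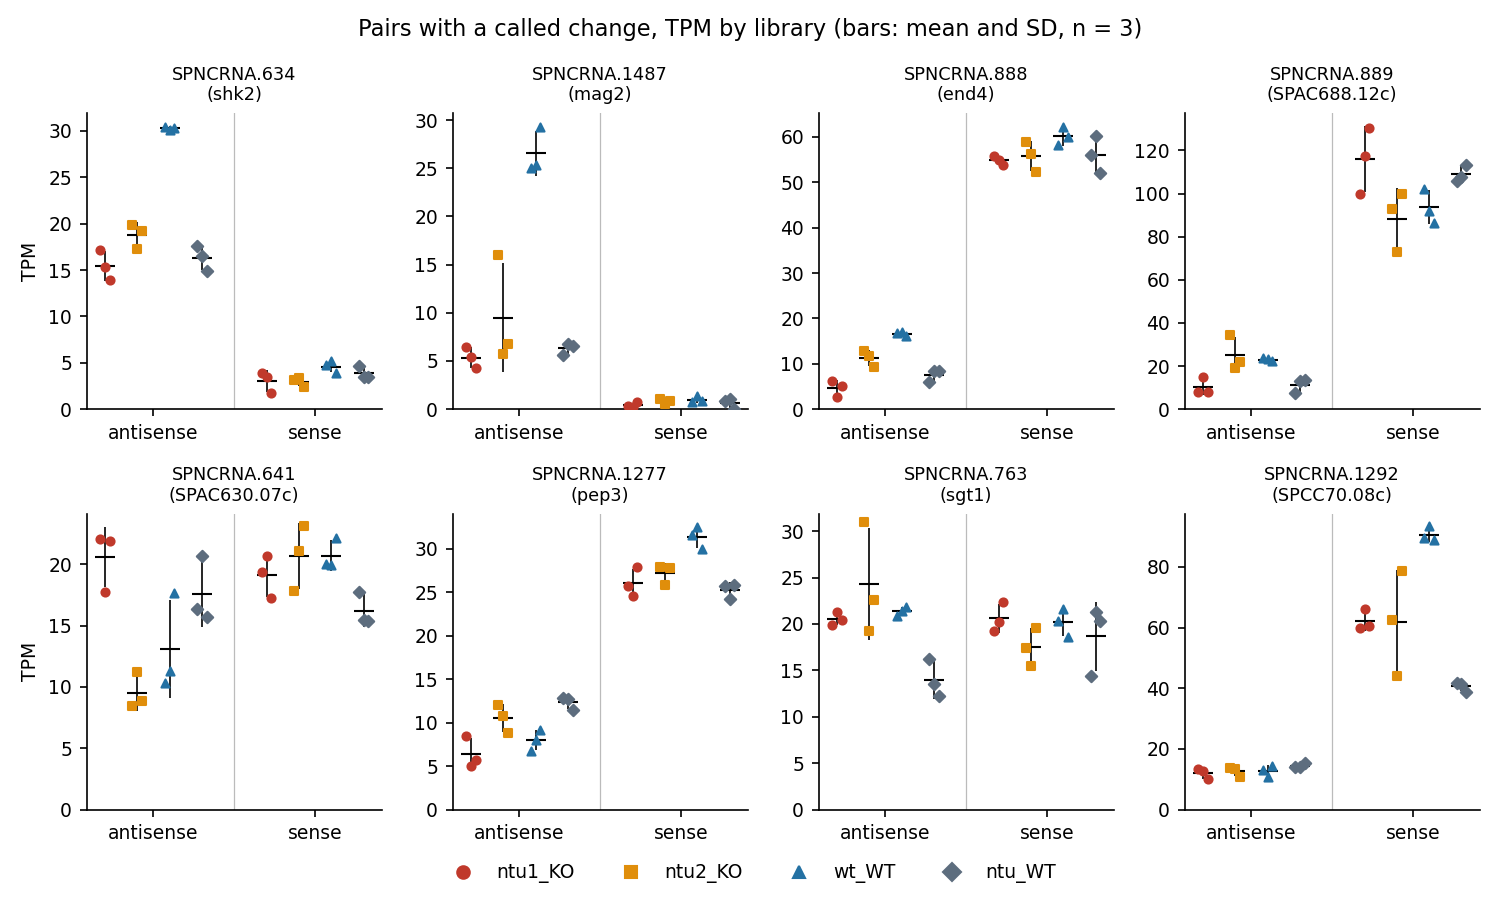
TPM of the antisense RNA (left) and the sense gene (right) in each library for 8 pairs with a called change in any comparison, with bars at the group mean and 1 SD (n = 3). SPNCRNA.888 and SPNCRNA.889 are higher in ntu2_KO and wt_WT than in ntu1_KO and ntu_WT, and for SPCC70.08c the sense gene rather than the antisense RNA is higher in wt_WT.

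The ratio of antisense to sense RNA differed between the wild types for 4 of the 129 members tested (3.10%), while 3.92% of all 434 pairs were called. It was higher in wt_WT for SPNCRNA.889 by 1.21 ± 0.28 and for SPNCRNA.888 by 0.95 ± 0.24 (log2, limma adjusted p = 0.0270 and 0.0384). It was lower for SPNCRNA.1277 by -0.88 ± 0.21 and for SPNCRNA.1292, opposite the methyltransferase gene SPCC70.08c, by -1.32 ± 0.26 (limma adjusted p = 0.0342 and 0.0118). For SPNCRNA.1292 the sense gene moved: SPCC70.08c had 89.4, 93.4 and 89.0 TPM in wt_WT, against 41.8, 41.3 and 38.7 TPM in ntu_WT (log2 fold change 1.07 ± 0.15, edgeR adjusted p = 0.000248), and SPNCRNA.1292 itself did not pass the test (-0.28 ± 0.16, adjusted p = 0.283). On leaving out 1 library at a time, the call for SPNCRNA.1292 was lost without replicate 2 of wt_WT alone (adjusted p = 0.0578), and those for SPNCRNA.889, SPNCRNA.888 and SPNCRNA.1277 were lost in 4, 5 and 5 of 6 cases, with adjusted p up to 0.112, 0.158 and 0.162.

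Changes of the antisense RNA and of the sense gene showed little common direction over the pairs. Of 125 pairs with both partners tested, 61 had the same sign for ntu1_KO and 54 for ntu2_KO, each against ntu_WT. For ntu1_KO against ntu2_KO it was 66 of 125. For wt_WT against ntu_WT it was 51 of 128. Both partners of a pair were called in none of the 4 comparisons. Between the wild types, 6 sense genes were called, among them pfd1 and map1, and 19 antisense RNAs, all in different pairs. SPNCRNA.1461 itself had 73.9, 69.8 and 65.1 TPM in wt_WT, against 52.9, 34.2 and 42.6 TPM in ntu_WT (log2 fold change 0.57 ± 0.18, edgeR adjusted p = 0.0564), while pfd1 (SPBC1D7.01) fell by 0.41 ± 0.10 (edgeR adjusted p = 0.0154), a call lost without replicate 2 or 3 of ntu_WT (0.0903 and 0.0610) or replicate 3 of wt_WT (0.0897). Across pairs with both partners tested, Pearson's r of the 2 log2 fold changes was -0.04 for ntu1_KO against ntu_WT, -0.13 for ntu2_KO against ntu_WT and -0.01 for ntu1_KO against ntu2_KO (n = 125 pairs each), and -0.17 for wt_WT against ntu_WT (n = 128). These pairs share libraries and the first 2 and the last comparison share ntu_WT, so the values are descriptions without a p.

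The summed level of the 150 RNAs was highest in wt_WT. It was 2466 to 2523 TPM in ntu1_KO, 2554 to 2843 TPM in ntu2_KO, 2890 to 2961 TPM in wt_WT and 2441 to 2542 TPM in ntu_WT. TPM values ran higher in wt_WT over all genes too, with 33.1% of genes tested wholly above ntu_WT and 7.37% wholly below. By limma on log2(TPM + 1), the median difference of wt_WT from ntu_WT was 0.22 over the members and 0.09 over all 6153 genes tested. How far this scale adds to the sums was not tested. Other antisense RNAs summed to 1326 to 1394 TPM in wt_WT and to at most 1271 TPM in any other library. The sense genes of the 150 summed to 7136 to 7360 TPM in ntu1_KO, 7182 to 7470 TPM in ntu2_KO, 6778 to 6924 TPM in wt_WT and 6725 to 6944 TPM in ntu_WT, so that the antisense order was not repeated on the sense strand.

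**Figure D5:**
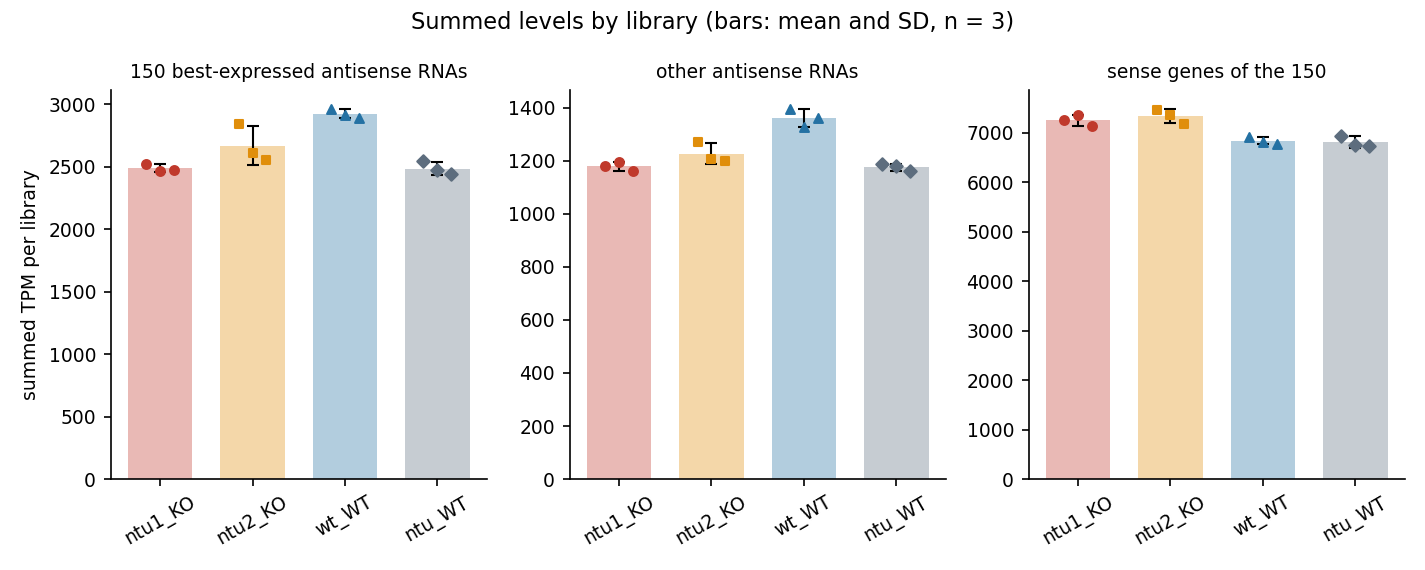
Summed TPM per library of the 150 antisense RNAs, of the other antisense RNAs and of the sense genes of the 150, as group means with SD (bars, n = 3) and single libraries (points), each axis starting at 0. In the first panel the 3 wt_WT libraries, at 2890 to 2961 TPM, lie above all others.

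Of 71 listed genes of the exosome, MTREC and Mmi1, cytoplasmic decay, RNA interference, heterochromatin, cryptic-transcription control and transcription termination, 70 were tested. None of them was called with edgeR in the 3 knockout comparisons, where 0.74%, 0.758% and 0.103% of all genes tested were called. DESeq2 called none either, and 0, 2 and 5 of the 70 had an unadjusted edgeR p under 0.05. Between the wild types 4 of the 70 were called with edgeR (5.71%), against 8.24% of all genes tested, and 3 with DESeq2. Among the genes called between the wild types, the termination factor gene seb1 was higher in wt_WT, with a log2 fold change of 0.22 ± 0.05 (SE; edgeR adjusted p = 0.0164). The exosome subunit gene rrp46 and the decapping complex gene dcp1 were lower, with log2 fold changes of -0.29 ± 0.07 and -0.44 ± 0.13 (SE, edgeR adjusted p = 0.0126 and 0.0358). The tables hold no antisense RNA opposite ntu1 or ntu2.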

How the data were processed

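Poly(A) RNA was sequenced with a stranded kit from 300 ng of total RNA per library, per the labels' protocols. The authors deposited estimated counts per gene, of which 91.2% of non-zero values are not whole, and TPM values that sum to 1e+06 per library. Salmon 1.9.0 and the build ASM294v2 are named in the submitters' processing notes; the sources used here do not give other settings, such as strand. Sense genes and overlaps were taken from the RefSeq annotation of ASM294v3, so no coordinates or sequences are printed. A sense gene was matched for all 150 members (145 by name, 4 by an older symbol, 1 by overlap) and for 629 of 634 antisense RNAs.

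Estimated counts were rounded (a total moved by at most 0.00271%). Genes were tested mainly with edgeR 4.0.16 (quasi-likelihood F-test; R 4.3.3, TMM, filterByExpr minimum count 10, robust) with Benjamini-Hochberg adjustment over all genes tested: 1 fit of the 9 ntu libraries, and 1 fit of all 12 for wt_WT against ntu_WT. A call is an adjusted p under 0.05. Ratios were tested with limma 3.58.1 (pseudocount 1 TPM, both partners at a mean of at least 1 TPM). Both steps were tested on simulated data. DESeq2 1.42.0, other scalings, filters, pseudocounts and left-out libraries were alternatives. Depth limits precision: 10 members had under 10 counts in at least 1 library. Named genes were the 10 most abundant, up to 10 called per comparison and per ratio test by smallest p, and the 10 highest and 5 lowest ratios; names outside that rule were chosen after their values were seen. The members and lists were chosen with earlier results of these data known.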

Additional observations from a re-analysis of the deposited data

Results flagged for a closer look

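The ratio of antisense to sense RNA differed between the 2 knockouts for a pair of members, by a test of the difference itself. For SPNCRNA.889 and SPAC688.12c the log2 difference of ntu1_KO minus ntu2_KO was -1.62, and for SPNCRNA.641 and SPAC630.07c it was 1.14 (limma adjusted p = 0.0409 for each, lower for SPNCRNA.889 and higher for SPNCRNA.641 in 3 of 3 ntu1_KO libraries on the antisense strand). Of 11 alternatives for each, the call was kept in 4 for SPNCRNA.889 and in 2 for SPNCRNA.641. Both calls were lost with a pseudocount of 0.1 (limma adjusted p = 0.0733 for each).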

How the results depend on the processing

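No named change reversed its direction: of 222 alternative values for 18 named changes, 160 kept their side of the threshold and 62 did not. Counts of called members moved more, and the cause was not tested. For ntu1_KO against ntu_WT the count of 1 became 0 with a 2-fold minimum and with limma on log2(TPM + 1). It became 2 with no filter on low counts (0.697% of all genes tested) and with all 12 libraries in the fit (1.03%). With wt_WT as the control it was 16 (5.87%), and leaving out 1 library gave 0 to 1. The ratio count of 0 for this comparison became 4 with wt_WT as the control (2.53% of all pairs), and 0 to 1 on leaving out 1 library. For ntu2_KO against ntu_WT the count of 1 became 0 with a 2-fold minimum and with limma, 2 with DESeq2, and 4 with wt_WT as the control (3.78% of all genes); leaving out 1 library gave 0 to 4, the 4 beside 3.33% of all genes. Its ratio count of 0 became 2 with a pseudocount of 5 and with a mean of at least 5 TPM (0 to 1 on leaving out 1 library). For ntu1_KO against ntu2_KO the count of 0 became 1 with DESeq2, with limma and with all 12 libraries (0.243%, 0.13% and 0.153% of all genes tested). Leaving out 1 library gave 0 to 4, the 4 beside 1.38% of all genes, against 0.103% before. The ratio count of 2 for this comparison became 0 with a pseudocount of 0.1 and with no filter on low values (0 to 1 on leaving out 1 library). For wt_WT against ntu_WT the count of 19 became 2 with a 2-fold minimum, 31 with the compared groups alone (17.5% of all genes tested, against 8.24% before) and 9 with thinned libraries (5.58%); leaving out 1 library gave 8 to 16, beside 3.84% to 7.26% of all genes. Its ratio count of 4 (3.92% of all pairs) became 1 with a pseudocount of 0.1 (2.07%) and 10 with a pseudocount of 5 (6.45%). Leaving out 1 library gave a ratio count of 0 to 4. Lone libraries were assumed to vary like the rest of the fit.

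The deviations of same-numbered libraries gave 18 correlations from -0.16 to 0.10, 0 of them over 0.1. Whether these libraries share more than a number was not tested. With a replicate block 2 members were called for ntu1_KO and 2 for ntu2_KO against ntu_WT, beside 0.895% and 1.38% of all genes tested. Without the block these shares were 0.74% and 0.758%. The ratio counts with the block were 3 for ntu2_KO against ntu_WT, 1 for ntu1_KO against ntu2_KO and 7 for wt_WT against ntu_WT. Beside them stood 1.15%, 0.23% and 4.38% of all pairs. The median antisense to sense ratio of the members, 0.756, was 1.08 for the 100 and 0.607 for the 200 most abundant.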
